A study of Mus musculus with 5 samples.

Results

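In all, 10 genes of the dense-core vesicle and its prohormone processing were followed in ribosome-bound RNA from mouse midbrain, namely the granins Chga, Chgb, Scg2, Scg3 and Scg5, the IA-2 proteins Ptprn and Ptprn2, and the processing enzymes Pcsk1, Pcsk2 and Cpe. They were selected on their roles and from the comparison of Esrrg Flox with Esrrg WT in these same libraries, in which Ptprn2 had one of the larger falls. Their values in that comparison are therefore a description. No p is given for a member, and the numbers of members past a threshold stand only beside the share of all genes past it. They are 10 of the 53700 gene IDs in the deposited table, and all 10 passed the filter on low counts that left 15228 genes with an adjusted p. RNA was purified by BAC-TRAP, in which an antibody against EGFP pulls down ribosomes whose L10a protein carries the EGFP tag in cells with Cre recombinase. All mice were C57BL/6, 4 months of age, carried the L10a transgene and had AAV:THCre injected into the midbrain, a virus in which the tyrosine hydroxylase (Th) promoter drives Cre. The Esrrg WT group (genotype L10a;Esrrg WT, 3 libraries, replicates 2, 3 and 4) kept Esrrg, the gene of estrogen-related receptor gamma (ERRγ). The Esrrg Flox group (2 libraries, replicates 2 and 4) carried loxP sites around a coding exon of Esrrg, and its tissue was taken 1 month after the deletion. Each library came from a pool of mice, so p-values measure only the spread between these pools.

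Dense-core vesicles are the large granules from which neurons and endocrine cells release peptides on demand. Granins are acidic proteins that aggregate in the trans-Golgi network and help to pack the granule, prohormone convertases and carboxypeptidase E cut and trim the precursors inside it, and the IA-2 proteins are receptor-like members of the protein tyrosine phosphatase family, with little or no protein phosphatase activity, that span its membrane. DAergic neurons hold such granules beside small synaptic vesicles, and load both with dopamine through the vesicular monoamine transporter.

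The libraries held 20635855 to 23105058 assigned counts, and 3 counts, the limit set by a count of 0, corresponded to 0.13 to 0.145 CPM (counts scaled to a common library total), for counting error only. Esrrg had 1763, 1643 and 1726 normalized counts in WT and 1504 and 1170.1 in Flox, both below every WT library, with a log2 fold change of -0.35 (SE 0.13, DESeq2 adjusted p = 0.0734). Counts of a whole gene do not measure the loss of a single exon. Markers of DAergic neurons were abundant, with 9849 to 12813 normalized counts of Th in WT and 10224 and 10945 in Flox (log2 fold change -0.079, DESeq2 adjusted p = 0.804), and with Aldh1a1 as the highest of that list. Other cell types were present as well. Gad1 (GABAergic neurons) averaged 9558 normalized counts in WT, Slc17a6 (glutamatergic neurons) 4149 and Gfap (astrocytes) 25822, so the values below are not those of DAergic neurons alone. Input RNA and pull-downs without Cre were not analysed here. In such bulk samples, fewer cells of a type and less RNA per cell cannot be told apart.

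Promoter sequences are shown for 4 members, because 3 of them share a regulatory word and because the fourth, Ptprn2, had the largest change of the members. The sequences are those of RefSeq on the build GRCm38.p6, where 9 of the 10 members had an entry (all but Cpe). Each stretch holds the 130 bases before the annotated start, written 5′ to 3′ on the gene's strand. Capitals mark the full cyclic AMP response element (CRE), the palindrome TGACGTCA to which CREB family factors are known to bind.
Scg2 (chr1:79440027-79440156, minus strand): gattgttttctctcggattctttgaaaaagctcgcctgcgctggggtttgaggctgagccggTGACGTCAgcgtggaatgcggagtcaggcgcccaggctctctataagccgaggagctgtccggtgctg
Chgb (chr2:132781512-132781641, plus strand): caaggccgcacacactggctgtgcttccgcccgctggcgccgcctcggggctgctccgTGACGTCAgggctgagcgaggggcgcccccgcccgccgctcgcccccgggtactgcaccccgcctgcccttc
Pcsk1 (chr13:75089727-75089856, plus strand): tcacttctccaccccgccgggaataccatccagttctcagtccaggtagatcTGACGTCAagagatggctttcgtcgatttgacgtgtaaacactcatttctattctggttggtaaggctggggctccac
Ptprn2 (chr12:116485590-116485719, plus strand): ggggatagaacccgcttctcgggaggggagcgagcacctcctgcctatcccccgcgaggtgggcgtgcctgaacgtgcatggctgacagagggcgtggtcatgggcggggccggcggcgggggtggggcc

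Motifs were searched on both strands from 250 bases before to 50 after the start. The full CRE began at -68 in Scg2, -72 in Chgb and -78 in Pcsk1. Of the 27025 genes with a promoter entry, 2.03% held it in at least 1 window. The first 5 letters of the CRE alone, TGACG, which every full CRE also holds on both strands, were found in 8 of the 9 members. They were found in 23.0% of all genes with an entry. Ptprn2 was the member without them, and has no capitals in its line above. In Ptprn a variant that also contains TGACG, TGACGCAA, began at -117, and 0.562% of all genes with an entry held this word. Of the motifs known for ERR proteins, the extended half-site TNAAGGTCA (1.43% of all genes with an entry) and its core AAGGTCA (5.38%), which lies within the first, neither occurred in the windows of the 9 members. These matches are descriptions of the letters in the windows only. Among 51 other dense-core vesicle genes with a promoter entry, the full CRE was in Cartpt, Slc18a2 and Sst.

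In WT, the members covered a 101.9-fold range of levels. On a scale of reads per kilobase of exon, set to the same total in each library as TPM is so that genes can be compared, Cpe had the highest level with 2069 ± 110.1 (SD, n = 3) and was at rank 44 of the 26766 genes with a count. Carboxypeptidase E removes the basic residues that convertases leave at the ends of peptides. Scg2, whose product secretogranin II is a precursor of secretoneurin, followed at 973 ± 93.7 (rank 148). The next 3, Chga (539 ± 54.0), Chgb (493 ± 76.4) and Scg5 (473 ± 65.7), overlapped with their neighbours across the WT libraries and their order is not resolved. Ptprn came next at 359 ± 47.6, close under the lowest library of Scg5, and Scg3 stood at 217 ± 12.03. The convertases were far lower, with Pcsk2 at 58.9 ± 4.996 and Pcsk1 at 20.3 ± 0.983 (rank 6182), and Ptprn2 lay between them at 42.2 ± 3.83 (rank 3884). From Pcsk2 down, no neighbours overlapped in WT.

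In Flox the order changed in 2 places. Scg5 moved from the fifth to the third place (574 ± 17.7, SD, n = 2), and Ptprn2 moved from the ninth to the last place. Its Flox level, 17.8 ± 6.57, was 22.4 in replicate 2 and 13.1 in replicate 4, around the level of Pcsk1 (20.2 and 20.5). When the longest transcript was used as the length, Chgb and Scg5 changed places in WT and the other places were as before, although the values themselves shifted, to 65.7 for Ptprn2. On this scale the groups did not overlap for Ptprn2 and Pcsk2 (Flox below WT, narrowly for Pcsk2) or for Scg2 and Scg5 (Flox above WT). The share of all genes without overlap was not computed on this scale, so nothing is read from these arrangements. On normalized counts, 22.9% of all genes had both Flox libraries below every WT library and 19.9% had both above. With the normalized counts used below, Pcsk2 overlapped, and Chgb, Scg3 and Pcsk1 also had Flox above WT.

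**Figure D1:**
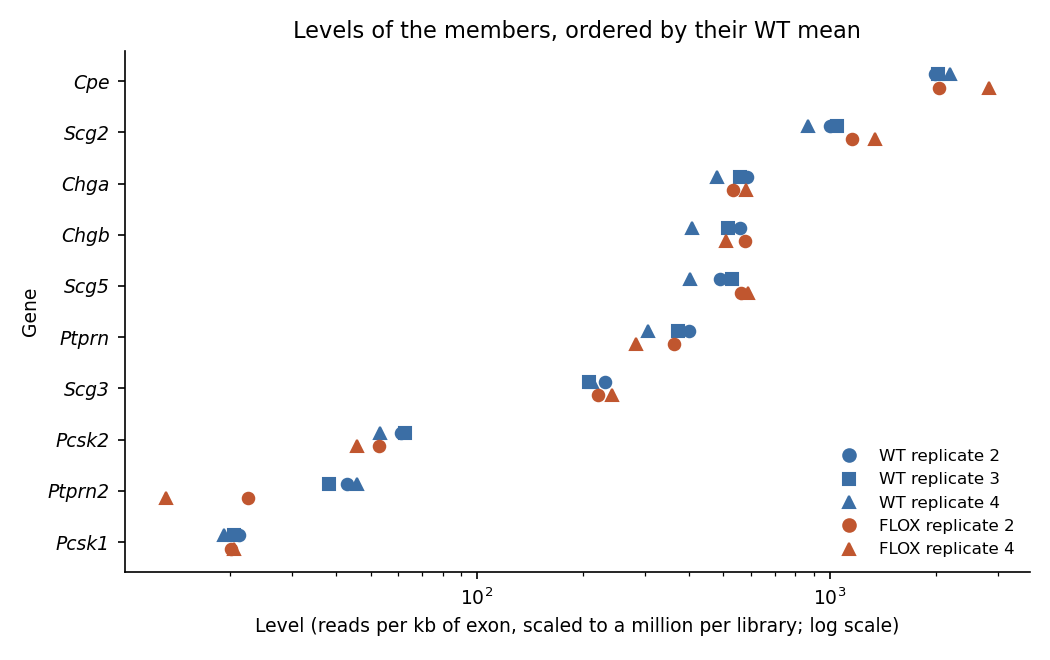
Level of each member in reads per kilobase of exon, set to the same total in each library (horizontal log axis), with genes ordered by their mean in the 3 Esrrg WT libraries (blue) and the 2 Esrrg Flox libraries in orange. Cpe is highest at 2069 in WT, and the Flox libraries of Ptprn2 (22.4 and 13.1) are below its WT libraries (38.2 to 45.8).

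Together the members took 0.434% to 0.462% of all assigned counts in WT, and 0.487% and 0.575% in Flox replicates 2 and 4. Between the groups, 5 of the 10 had both Flox libraries above every WT library (Chgb, Scg2, Scg3, Scg5 and Pcsk1), an arrangement shown by 19.9% of all 15228 genes, and 1 had both below (Ptprn2), as did 22.9% of all genes. At a DESeq2 adjusted p under 0.05, 2 members were higher in Flox (Scg2 and Scg5; background 4.33%) and 1 was lower (Ptprn2; 4.25%). With the added requirement of a 1.5-fold change, 0 were higher (background 1.81%) and 1 was lower (Ptprn2; 1.46%). At an unadjusted p under 0.05 in DESeq2, 4 members were higher (background 9.88%) and 1 was lower (10.9%). With edgeR's quasi-likelihood test and the same thresholds, 1.08% of 16627 genes were called in either direction and Ptprn2 was the only member among them. The median log2 fold change of the members was 0.19, beside -0.0093 for all genes, and 7 of 10 were positive, beside 48.6% of all genes. Nothing is read from these counts, since the comparison took part in the choice of the members.

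**Figure D2:**
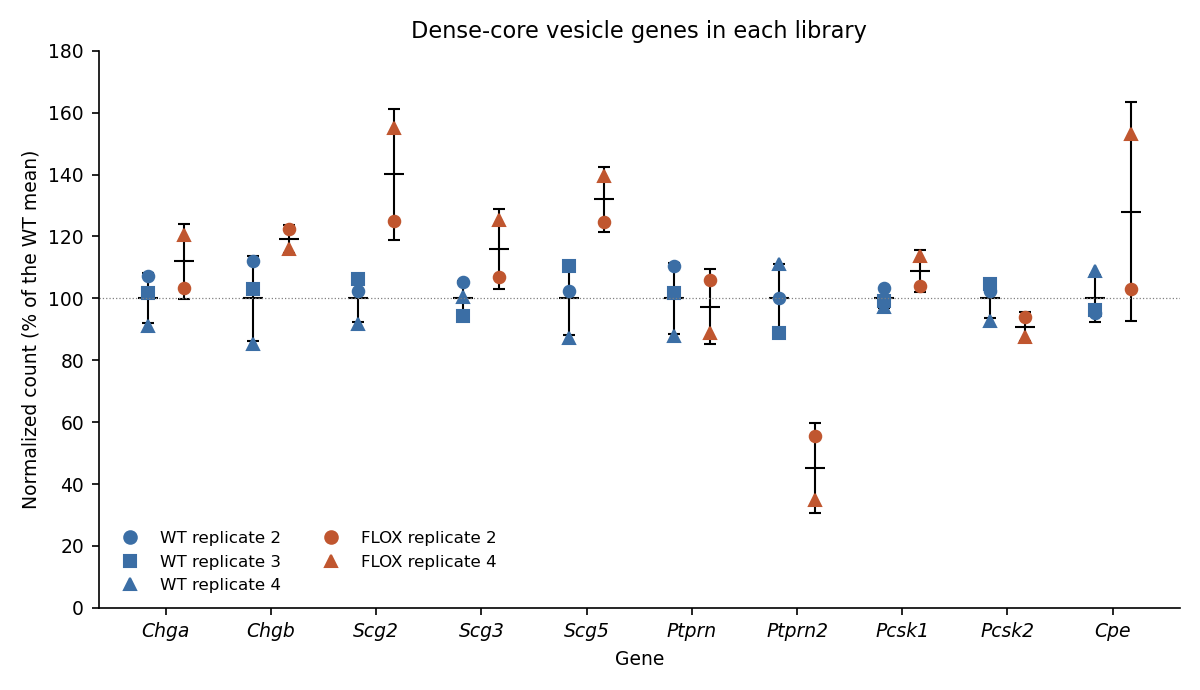
Normalized count of each member in each library as a percentage of its mean in the 3 Esrrg WT libraries (vertical axis, starting at 0), with Esrrg WT in blue, Esrrg Flox in orange, and the mean ± SD of each group in black. Ptprn2 is at 55.6% and 34.9% in the Flox libraries, while Scg2 and Scg5 are above every WT library.

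The granins were the group whose fold changes were positive in all 5 members, from 0.16 to 0.49 on the log2 scale. Scg2 (ENSMUSG00000050711.8, chromosome 1) had 17009.5, 17656 and 15247 normalized counts in WT replicates 2, 3 and 4 and 20794 and 25799 in Flox replicates 2 and 4. The groups did not overlap, and Flox replicate 4 was the higher of the pair. The means were 16638 ± 1247 (SD, n = 3) and 23297 ± 3539 (SD, n = 2), a log2 fold change of 0.49 (SE 0.12).

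Scg5 (ENSMUSG00000023236.8, chromosome 2) encodes 7B2, the chaperone that PC2 needs in order to become active. It had 5162, 5572 and 4397 normalized counts in WT and 6288 and 7037 in Flox. The groups did not overlap, and the log2 fold change was 0.40 (SE 0.12).

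The chromogranins, the most widely used markers of this granule, differed less. Chgb (ENSMUSG00000027350.9, chromosome 2) had 10272, 9445 and 7807 normalized counts in WT and 11239 and 10648 in Flox, a log2 fold change of 0.25 (SE 0.13). Its Flox libraries lay above the WT libraries, with a gap smaller than the range within WT. Chga (ENSMUSG00000021194.7, chromosome 12) had 10827, 10262 and 9213 in WT and 10453 and 12183 in Flox, so that Flox replicate 2 fell inside the WT range, and its log2 fold change was 0.16 (SE 0.11).

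Scg3 (ENSMUSG00000032181.8, chromosome 9), whose product binds chromogranin A and cholesterol of the granule membrane, had 4254, 3810.3 and 4055 normalized counts in WT and 4315 and 5057 in Flox. Flox replicate 2 was just above the highest WT library, and replicate 4 made up most of the log2 fold change of 0.21 (SE 0.11).

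The IA-2 proteins, the pair most alike in structure, had unlike values. Ptprn2 (IA-2β or phogrin; ENSMUSG00000056553.15, chromosome 12) had 2480.05, 2199 and 2749.7 normalized counts in WT and 1377 and 864 in Flox. Both Flox libraries were far below the WT libraries, and Flox replicate 4 was the lower. The mean was 54.8% lower in Flox (2476 ± 275, SD, n = 3, against 1120.2 ± 363, SD, n = 2), a log2 fold change of -1.14 (SE 0.18). By size this was number 42 of the 222 genes called lower.

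Ptprn (IA-2; ENSMUSG00000026204.16, chromosome 1) had 11445, 10555 and 9096 normalized counts in WT and 10972 and 9197 in Flox. The groups overlapped fully, with a log2 fold change of -0.04 (SE 0.13). The ratio of Ptprn2 to Ptprn within a library was 0.217, 0.208 and 0.302 in WT and 0.125 and 0.0939 in Flox, again without overlap. This pair and the other ratios below were chosen after the counts had been seen.

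Ptprn2 is the longest member. Its gene spans 791 kb, more than 99.4% of the tested genes, while its exonic GC content, 48.0%, is near the middle. Over the 208 tested genes that span at least 500 kb, the median log2 fold change was -0.063. At an adjusted p under 0.05 in DESeq2, 18 of them were lower and 3 higher (4.25% and 4.33% of all genes). The fifth of tested genes with the longest exonic sequence had a similar median, -0.054, and a part of gene span in the fall of Ptprn2 was not tested. The span of Ptprn2 includes 6 other annotated genes, among them Mir153 on the same strand, and none shares an exon base with Ptprn2. Mir153 had 1 count in all libraries together, in an assay that does not capture mature miRNAs. Elsewhere, antisense genes share 4.45% of the exon bases of Ptprn and up to 3.29% of those of Pcsk2, and reads from there cannot be assigned, as the libraries did not keep strand.

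The genes most like Ptprn2 over the 5 libraries, by the root mean square difference of centred log2 normalized counts among 11522 genes with a mean of at least 100, were Tvp23a (0.029), Jmjd8 (0.032), Ubxn6 (0.075), Pde4d (0.076) and Adcy3 (0.078). Their log2 fold changes ran from -1.19 (Tvp23a) to -1.05 (Pde4d), near that of Ptprn2 because they were picked for likeness over these same libraries. All are less abundant than Ptprn2, with 279 to 438 normalized counts in the WT libraries for Ubxn6, Pde4d, Adcy3 and Tvp23a and 161 to 212 for Jmjd8.

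The processing enzymes had log2 fold changes from -0.14 to 0.36. Pcsk1 (PC1/3; ENSMUSG00000021587.6, chromosome 13) makes the first cuts in most prohormones. It had 801, 768 and 753 normalized counts in WT and 806 and 879.8 in Flox, and Flox replicate 2 was above the WT maximum by only a few counts (log2 fold change 0.12, SE 0.13).

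Pcsk2 (PC2; ENSMUSG00000027419.10, chromosome 2), which makes the later cuts, had 3244, 3317 and 2939 normalized counts in WT and 2979.9 and 2775 in Flox. The groups overlapped through WT replicate 4, and the log2 fold change was -0.14 (SE 0.11). The convertases had opposite signs, but both fold changes were of about the size of their SE, so the signs are not resolved. The ratio of Pcsk1 to Pcsk2 was 0.247, 0.232 and 0.256 in WT and 0.270 and 0.317 in Flox.

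The ratio of Scg5 to Pcsk2 counts was 1.59, 1.68 and 1.496 in WT and 2.11 and 2.54 in Flox. These groups did not overlap either, and the share of gene pairs without overlap was not computed. The ratio compares RNA of the chaperone with RNA of the enzyme it serves, not the proteins. The genes also differ in exonic length, which moved with the fold change (below). With that trend removed, the log2 fold change was 0.28 for Scg5 and -0.074 for Pcsk2. Among the granins, Scg2 per Chga was 1.57, 1.72 and 1.66 in WT and 1.99 and 2.12 in Flox, while Chgb per Chga overlapped (0.847 to 0.949 in WT, 1.08 and 0.874 in Flox).

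Cpe (ENSMUSG00000037852.9, chromosome 8) had 34981, 35357 and 39981 normalized counts in WT and 37882 and 56258 in Flox. One Flox library was inside the WT range and the other, replicate 4, was at 153% of the WT mean. The mean of the Flox group, 47070 ± 12994 (SD, n = 2), thus rests on 1 library. Its log2 fold change was 0.36 (SE 0.15) with all libraries and 0.04 without Flox replicate 4.

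That library also had the highest value of Chga, Scg2, Scg3, Scg5 and Pcsk1 and the lowest of Ptprn2 and Pcsk2 among the 5 libraries, but not of Chgb or Ptprn. Without it, the median of the 10 members fell from 0.19 to 0.067, Scg2 had a log2 fold change of 0.32, Scg5 of 0.31 and Ptprn2 of -0.85. Without Flox replicate 2, Ptprn2 was at -1.52, Scg2 at 0.63 and Cpe at 0.61. In the 12 alternative fits, Ptprn2 lay between -1.52 and -0.85, Scg2 between 0.32 and 0.63 and Scg5 between 0.28 and 0.48. The adjusted p of Scg2 was not under 0.05 with edgeR or without Flox replicate 4, nor was that of Scg5 in these fits, with the trend on exonic length removed, or without WT replicate 2 or 4.

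**Figure D3:**
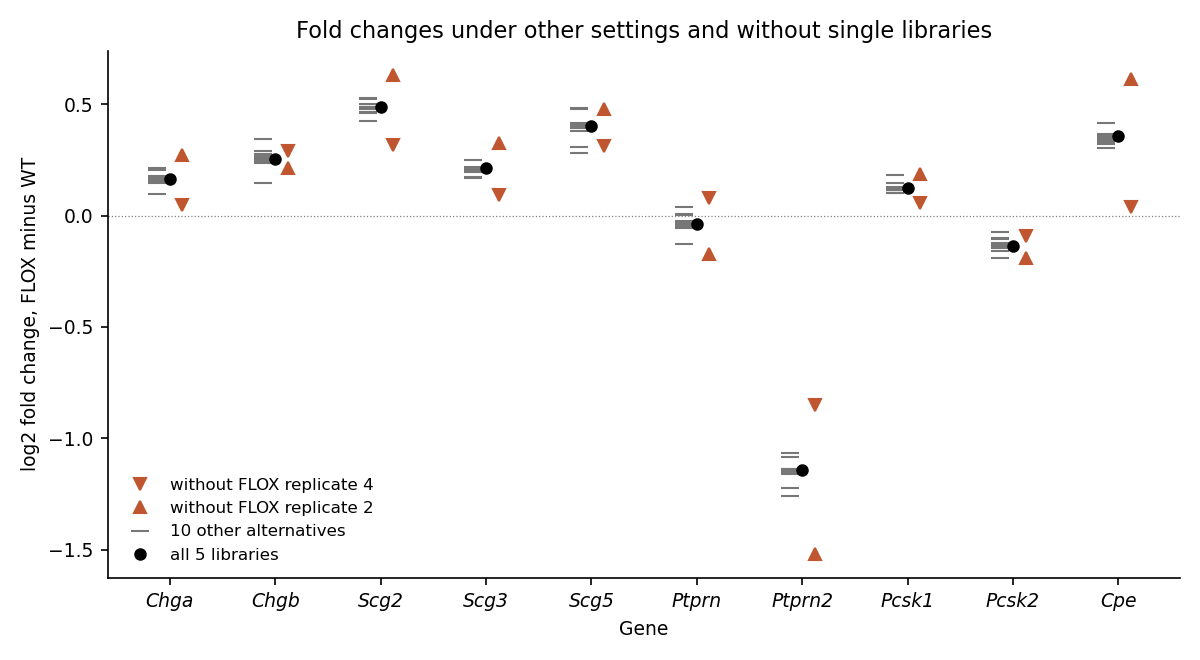
Log2 fold change of each member between Esrrg Flox and Esrrg WT with all 5 libraries (black), without Flox replicate 4 or 2 (orange triangles pointing down and up) and under 10 other alternatives (grey bars). Ptprn2 stays between -1.52 and -0.85, Ptprn crosses 0, and Cpe runs from 0.04 to 0.61 depending on which Flox library is left out.

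Markers of other cells moved with the groups. The summed level of 12 microglial markers was 69.6 to 136 CPM in WT and 237 and 491 CPM in Flox, with 10 of 12 higher at an adjusted p under 0.05 in DESeq2. C1qa, the most abundant of them, had 377 to 743 normalized counts in WT and 1598 and 4044 in Flox. Endothelial markers summed to 6.54 to 14.5 CPM in WT and 15.3 and 32.4 CPM in Flox. Of the 7 with an adjusted p, 3 were higher at under 0.05 in DESeq2. Cldn5, the most abundant (mean of 55.1 normalized counts in WT), overlapped between the groups, with 41.1, 88.7 and 35.5 in WT and 88.4 and 240.6 in Flox. Both sums were highest in Flox replicate 4, the library with the lowest Ptprn2 and the highest Scg2, Scg5 and Cpe, and their part in the members' values was not tested.

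The sums of neuronal markers moved less than those of microglia and endothelium. The 12 pan-neuronal markers, with Snap25 the most abundant, summed to 13064 to 13409.7 CPM in WT and 13079.5 and 13152 CPM in Flox. Per 1000 of these counts, Ptprn2 had 8.51, 7.81 and 9.48 counts in WT and 4.79 and 2.89 in Flox. On the same scale, Scg2 had 58.3, 62.7 and 52.6 counts in WT and 72.4 and 86.4 in Flox. Neither gene's groups overlapped on this scale. DAergic markers summed to 2375 to 2742 CPM in WT and 2369.9 and 2413 CPM in Flox. GABAergic markers summed to 905 to 942 CPM in WT and 819 and 709 CPM in Flox, below every WT library. Single neuronal markers fell, namely the pan-neuronal Nefm by 0.47 on the log2 scale (DESeq2 adjusted p = 0.00145), the DAergic Ret by 0.40 (0.00282) and the GABAergic Gad2 by 0.35 (0.0294), named after their values were seen. Nefm differed from most of its list, as 8 of the 12 pan-neuronal markers had a positive fold change and their median was 0.031. Of the 11 DAergic markers, 2 had a positive fold change and the median was -0.15. Of the 3 GABAergic markers, 0 did and the median was -0.28. The sums of glutamatergic (221 to 339 CPM in WT, 281 and 216 in Flox) and astrocytic markers (2007 to 2976 CPM in WT, 2105 and 2729.8 in Flox) overlapped between the groups. None of these markers was at 0 in every library.

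**Figure D4:**
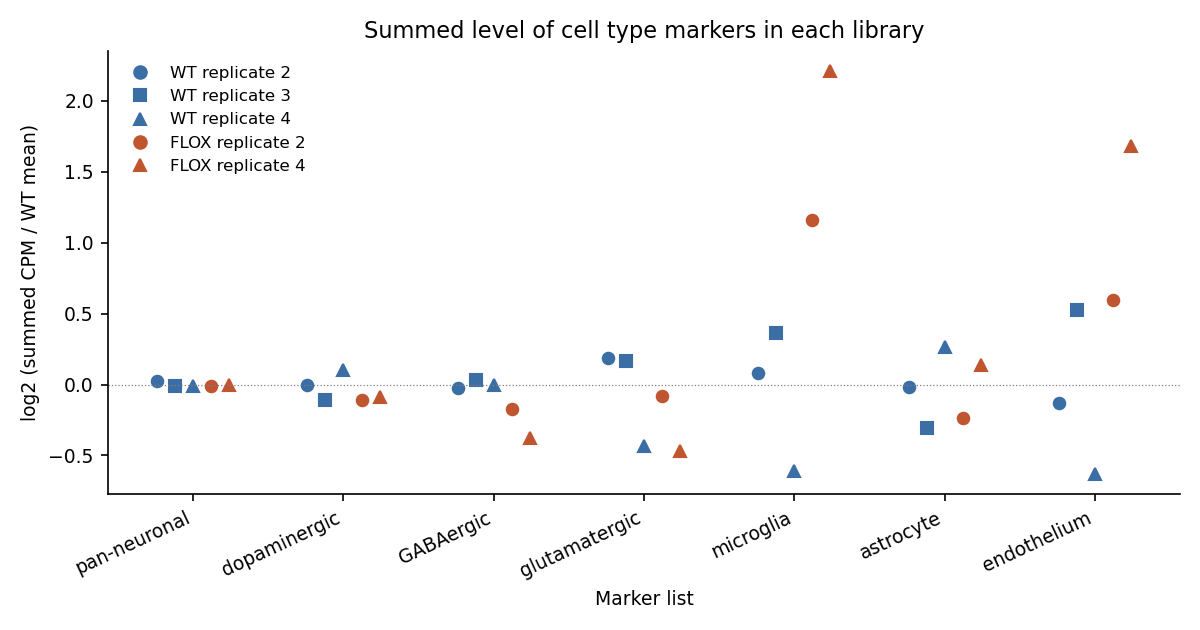
Summed CPM of 7 lists of cell type markers in each library, as the log2 ratio to the mean of the Esrrg WT libraries (blue, with Esrrg Flox in orange, and 1 point per library). The microglial sums of the Flox libraries (237 and 491 CPM) are above those of WT (69.6 to 136 CPM), and the pan-neuronal sums (13064 to 13409.7 CPM over all libraries) differ little.

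Exonic length also moved with the fold change over all genes. The median log2 fold change was 0.15 in the fifth of tested genes with the shortest exonic sequence (63 to 2284 bases) and -0.054 in the fifth with the longest (7457 bases and more). Scg5 (1569 bases) belongs to the first of these and Ptprn2 (8602 bases) and Pcsk2 (7910 bases) to the last. With this trend removed from each library, the log2 fold change was -1.08 for Ptprn2 and 0.28 for Scg5.

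To set the members in their pathway, 66 other genes of the dense-core vesicle were examined in 6 lists by role, which were drawn up with earlier results of these libraries known. Adjusted p-values were available for 62. At an adjusted p under 0.05 in DESeq2, 10 were higher and 2 lower (background 4.33% and 4.25% of all genes), and with the 1.5-fold threshold 4 were higher and 1 was lower (1.81% and 1.46%).

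Neuropeptide precursors, the cargo that the processing enzymes act on, held most of the genes that rose. Of 16 listed, 6 rose (background 4.33% of all genes) and the other 10 did not pass. In all, 14 had a positive fold change, and 10 had both Flox libraries above every WT library (19.9% of all genes). Their median log2 fold change was 0.50, 0.43 without Flox replicate 4 and 0.40 with the length trend removed.

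Gal, the galanin precursor, had 158, 255 and 114 normalized counts in WT and 407 and 438 in Flox, a log2 fold change of 1.27 (SE 0.27, DESeq2 adjusted p = 3.1e-04). Npy, the precursor of neuropeptide Y, had 298, 382 and 273 in WT and 680.1 and 488 in Flox, where the log2 fold change was 0.88 (SE 0.20) at a DESeq2 adjusted p of 9.0e-04. The groups did not overlap for either gene.

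Penk, the precursor of enkephalins, had 2959, 2827 and 2293 normalized counts in WT and 4014 and 4276 in Flox, and its log2 fold change was 0.62 (SE 0.13) at a DESeq2 adjusted p of 1.7e-04. Nts, the neurotensin precursor, a peptide also made by some DAergic neurons, had 491, 653 and 502 in WT and 693 and 1170.1 in Flox, without overlap, and its log2 fold change was 0.76 (SE 0.21) at a DESeq2 adjusted p of 0.00862. The remaining genes that rose, named after their values were seen, were Sst, the somatostatin precursor, with a log2 fold change of 0.54 (SE 0.16) at a DESeq2 adjusted p of 0.0152, and Adcyap1, the PACAP precursor, with 0.43 (SE 0.11) at 0.00538. Somatostatin, neuropeptide Y and enkephalins are best known from neurons other than DAergic ones.

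These calls depended on the test and on single libraries. Of the 12 alternative fits, Penk passed in 11, Npy in 10, Gal, Sst and Adcyap1 in 9 each and Nts in 7. With edgeR only Penk passed, at an adjusted p of 0.0449. Without Flox replicate 4 only Sst and Npy passed in DESeq2 (adjusted p = 0.0101 and 0.00354), and with the length trend removed Sst and Nts did not pass (0.340 and 0.0582). The microglial and GABAergic marker sums given above moved between the same libraries, and their part in the rise of these genes was not tested.

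The list labelled other granins held Vgf, Pcsk1n and Resp18, of which Resp18 is not itself a granin. Log2 fold changes in this list ran from 0.12 to 0.36. Resp18, an endoplasmic reticulum and granule protein of endocrine cells, rose from 5556 ± 602 (SD, n = 3) to 7122 ± 444 (SD, n = 2) normalized counts, by 0.36 on the log2 scale (SE 0.12) at a DESeq2 adjusted p of 0.0355. It passed in 6 of the 12 alternative fits, and not with the length trend removed (0.503) or without Flox replicate 4 (0.621). Vgf and Pcsk1n, the latter the precursor of the PC1/3 inhibitor proSAAS, were not past the threshold, with log2 fold changes of 0.19 and 0.12, and are named only to complete the list.

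Of 11 other processing enzymes with an adjusted p, Ctsl, a cysteine protease that can also act on prohormones in granules but is mainly lysosomal, was the one that rose, by 0.40 on the log2 scale (SE 0.12) at a DESeq2 adjusted p of 0.0132. It is also made by microglia, whose markers were higher in the same libraries, and their part in its rise was not tested. It passed in 7 of the 12 alternative fits, and not without Flox replicate 4 (0.654). The median of this list was 0.016.

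In granule biogenesis, with 14 genes and a median log2 fold change of -0.23, 8 genes had both Flox libraries below every WT library (22.9% of all genes) and 2 fell. Rab2b, a small GTPase, had 45.3, 49.9 and 83.6 normalized counts in WT and 24.98 and 19.9 in Flox, few counts in any library, and its log2 fold change was -1.41 (SE 0.45) at a DESeq2 adjusted p of 0.0278. Vps51, a subunit of the EARP and GARP tethering complexes, had 952, 772 and 838 in WT and 658 and 595 in Flox, and fell by 0.45 on the log2 scale (SE 0.14) at a DESeq2 adjusted p of 0.0296. Each passed in 5 of the 12 alternative fits. Neither did with edgeR (0.0661 and 0.0763) or with any Flox library left out, and Rab2b had no adjusted p in 3 of the fits.

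In granule transport and release, 0 of 13 genes passed in DESeq2 with default settings and all libraries, or in edgeR. The median was -0.14. At an unadjusted p under 0.05 in DESeq2, 1 was higher and 4 were lower (9.88% and 10.9% of all genes). Among the alternative DESeq2 fits with both Flox libraries, Syt4 passed with the filter on low counts and with the length trend removed, and Syt7 without WT replicate 4. With all libraries, their log2 fold changes were 0.30 (Syt4) and -0.26 (Syt7). The 2 most abundant were Kif1a, the kinesin that carries dense-core vesicles along axons, with a log2 fold change of -0.23 (SE 0.11) at a DESeq2 adjusted p of 0.211, and Rph3a, a Rab effector of the granule, with -0.32 (SE 0.12) at 0.0727. In 7 of the 13 genes, both of these included, the Flox values were lower than any in WT (22.9% of all genes).

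In the granule membrane and lumen, 2 of 5 genes rose, namely the accessory subunits of the proton pump that acidifies the granule, Atp6ap2, by 0.36 on the log2 scale (SE 0.12) at a DESeq2 adjusted p of 0.0439, and Atp6ap1, by 0.34 (SE 0.12) at 0.0485. Each passed in 3 of the 12 alternative fits, and neither did without Flox replicate 4 (0.786 and 0.857), with edgeR, with the other scalings of library size, with the length trend removed or with the replicate block. Both proteins also serve lysosomes and other compartments.

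**Figure D5:**
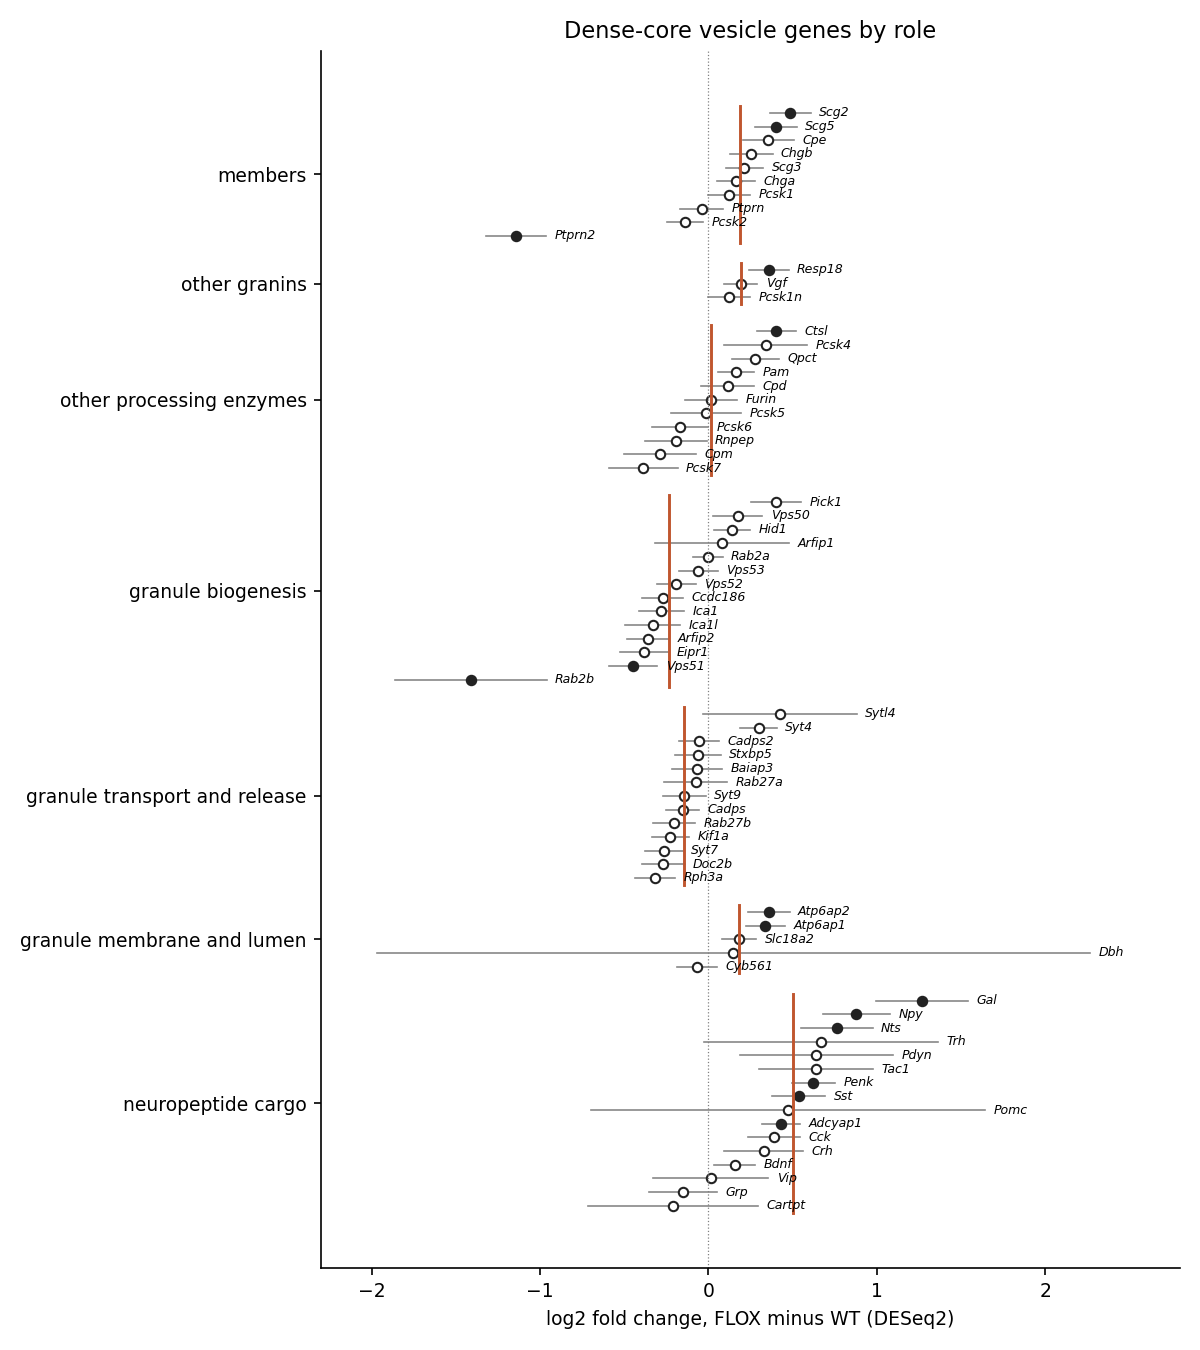
Log2 fold change between Esrrg Flox and Esrrg WT (points) ± SE (grey lines) for the 10 members and for 62 other dense-core vesicle genes by role, with filled points at a DESeq2 adjusted p under 0.05 and an orange line at each list's median. The cargo list has its median at 0.50, the biogenesis list at -0.23, and Ptprn2 and Rab2b stand apart on the left.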

How the data were processed

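Poly(A)-selected, non-strand-specific libraries were sequenced from 3 Esrrg WT and 2 Esrrg Flox pools. The authors trimmed the reads with Trim Galore 0.6.6, aligned them with STAR and deposited the raw counts of reads per gene from HTSeq-count, with no normalization. The study's methods name GRCm38 with GENCODE M24, while the submitters' processing notes name GRCm39, STAR 2.7.9a and HTSeq 0.11.3, so no coordinates of counted genes are given, and those of the promoters are RefSeq's own on GRCm38.p6. Reads outside genes (3.18% to 4.45% per library), in more than 1 gene (5.62% to 5.78%) or aligned to several places (3.60% to 4.23%) were left out. Columns of other samples numbered 0. Of 53700 IDs, 52147 (97.1%) were matched without version to GENCODE M21, the source of names, lengths and GC content.

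Counts were fitted with DESeq2 1.42.0 in R 4.3.3 (default size factors, two-sided Wald test, independent filtering at 0.05, Benjamini-Hochberg adjustment), the tool and thresholds (adjusted p under 0.05, a fold change of at least 1.5) of the study's methods. Raw counts were divided by the library's size factor to give normalized counts. The fits were tested on simulated data. The alternatives were edgeR 4.0.16, TMM library sizes, size factors from pan-neuronal genes, at least 10 counts in at least 2 libraries, trends on GC content or exonic length removed (lowess span 0.3), a replicate block, no fold-change threshold, each library left out, and the longest transcript as length. Library identity followed the column names, which match the sample labels.

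The members and lists were chosen with earlier results of these data known. Named were all members, Esrrg and Th, up to 4 genes per other list with the largest change among those with an adjusted p under 0.05 (otherwise the 2 most abundant), the most abundant gene of each marker list (1 list is not reported here), and the 5 genes nearest to Ptprn2. Sst, Adcyap1, Vgf, Pcsk1n, Syt4, Syt7, Nefm, Ret and Gad2 were named outside this rule.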

Additional observations from a re-analysis of the deposited data

How the results depend on the processing

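Each of the 5 libraries carries weight, and at 3 against 2 pools small changes of abundant genes could not be resolved. Of the 10 members, 1 was called (Ptprn2, lower in Flox), beside 1.46% of all genes called lower and 1.81% called higher. With no fold-change threshold 3 passed, beside 4.25% of all genes lower and 4.33% higher. Their median log2 fold change, 0.19, ran from 0.067 to 0.24 when single libraries were left out. Of the other dense-core vesicle genes, 5 were called and 12 passed with no fold-change threshold, beside the same shares of all genes. With edgeR 1 was called, beside 1.08% of all genes. With the length trend removed 3 were called, and 1 to 6 were when a single WT library was left out. The share of all genes called was not computed for these fits, and 46 of the other genes had an adjusted p without WT replicate 4. Nothing is read from these counts. Without WT replicate 4, Gal and Rab2b had no adjusted p after independent filtering. Of 120 alternative fold changes of members, 114 kept their direction and their side of the call (an adjusted p under 0.05 with a 1.5-fold change), 2 became called, and 4, all of Ptprn, changed sign: 0.0058 with the GC trend removed, 5.1e-04 with the length trend removed, 0.079 without Flox replicate 4 and 0.036 without WT replicate 2 (-0.17 to 0.079 over all left-out libraries).

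The groups share the replicate numbers 2 and 4, which the labels tie to no batch. Deviations from the group means correlated at 0.092 (replicates 2) and 0.086 (replicates 4) over 16178 genes. With 2 Flox libraries their deviations are mirror images, so these values cannot show whether same-numbered pools share a batch. With the replicate block, the median log2 fold change of the 10 members was 0.17 and that of Ptprn2 alone was -1.26.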
